A study of Drosophila melanogaster with 3 samples.

Results

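The multi-summit regions are stretches of chromatin enriched for the CG13894-GFP fusion protein in which the peak list marked 2 or 3 separate summits, the positions of highest enrichment. They are all regions of the thresholded peak list whose chromosome, start and end are shared by 2 or more peaks, without the region over the CG13894 gene itself. Of the 7211 regions of that list, 195 met the rule, 181 with 2 summits and 14 with 3. Their 404 summits stand among 7434 in the list, and 7015 regions held 1 summit. Summit number, spacing and the signals of the thresholded list belong to the choice of these regions and are given as descriptions, with no test.

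The samples were whole Drosophila melanogaster embryos, aged 2 to 24 h by the description of their source, from 1 transgenic line in which the C-terminus of CG13894 is fused to green fluorescent protein (GFP). Sonicated chromatin was pulled down with an anti-GFP antibody and sequenced (ChIP-seq), in 3 biological replicates of 1 group. The labels' separate age entry holds a number of hours far too large for an embryo and was not used. No second genotype or treatment was compared, and all 3 replicates carry the same transgene. The labels do not state which promoter drives the fusion or the state of the native gene, and whole embryos mix all cell types of these stages.

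CG13894 is known by its gene number. In ChIP-seq, a peak caller joins neighbouring enriched bases into a region and places a summit where the enrichment is highest, and a region may be given more than 1 summit. Drosophila promoters fall into broad classes that differ in sequence: many promoters of housekeeping genes carry the DNA replication-related element (DRE, TATCGATA), bound by the factor DREF, while GA repeats are bound by the GAGA factor and mark many promoters and regulatory elements of developmental genes. Polycomb and trithorax group proteins, which hold developmental genes repressed or active, act through such elements.

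The windows reaching 100 bp to either side of 7 summits are shown because later results turn on them: both summits of the Polycomb group gene ph-p, the most evenly shared of the strongest regions; both summits of the glycolytic gene Pgk, the pair farthest apart; 2 windows with GA repeats, at the hexokinase gene Hex-A and in CG9663; and the 1 window of all 404 that held a DRE, beside lncRNA:CR31840. They lie at chrX:2137213-2137413 and chrX:2137843-2138043 (ph-p), chr2L:2751284-2751484 and chr2L:2752846-2753046 (Pgk), chrX:9585627-9585827 (Hex-A), chr2L:3302067-3302267 (CG9663) and chr2L:14024548-14024748 (lncRNA:CR31840). The letters are from the RefSeq Release 6 genome, plus strand, 5′ to 3′, and summits are numbered from the strongest. The capital at the centre of a window marks the summit base, and other capitals mark matches to TATCGATA, GAGAGAG or CACACAC on either strand.
ph-p summit 1: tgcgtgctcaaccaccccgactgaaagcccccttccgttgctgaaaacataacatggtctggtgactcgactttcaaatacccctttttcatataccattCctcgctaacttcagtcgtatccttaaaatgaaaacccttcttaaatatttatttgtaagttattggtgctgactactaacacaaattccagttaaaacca
ph-p summit 2: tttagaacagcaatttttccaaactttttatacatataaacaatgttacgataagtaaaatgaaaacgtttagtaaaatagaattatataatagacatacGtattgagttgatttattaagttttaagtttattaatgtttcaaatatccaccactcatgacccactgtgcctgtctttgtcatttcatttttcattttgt
Pgk summit 1: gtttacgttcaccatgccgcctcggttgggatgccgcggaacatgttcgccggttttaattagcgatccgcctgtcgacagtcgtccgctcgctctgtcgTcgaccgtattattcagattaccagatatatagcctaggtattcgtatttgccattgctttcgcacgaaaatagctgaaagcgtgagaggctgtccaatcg
Pgk summit 2: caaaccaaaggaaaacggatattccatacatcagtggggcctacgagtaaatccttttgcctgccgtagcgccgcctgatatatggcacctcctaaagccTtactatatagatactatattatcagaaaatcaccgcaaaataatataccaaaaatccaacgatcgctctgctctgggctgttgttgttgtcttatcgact
Hex-A summit 2: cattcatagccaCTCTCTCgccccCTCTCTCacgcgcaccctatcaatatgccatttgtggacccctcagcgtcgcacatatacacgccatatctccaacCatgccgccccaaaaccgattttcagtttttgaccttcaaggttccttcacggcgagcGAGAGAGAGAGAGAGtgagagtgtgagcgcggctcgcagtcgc
CG9663 summit 1: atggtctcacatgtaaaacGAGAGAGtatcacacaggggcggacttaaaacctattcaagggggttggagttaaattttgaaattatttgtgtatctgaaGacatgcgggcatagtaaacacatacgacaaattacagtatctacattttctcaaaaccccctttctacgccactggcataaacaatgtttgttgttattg
lncRNA:CR31840 summit 2: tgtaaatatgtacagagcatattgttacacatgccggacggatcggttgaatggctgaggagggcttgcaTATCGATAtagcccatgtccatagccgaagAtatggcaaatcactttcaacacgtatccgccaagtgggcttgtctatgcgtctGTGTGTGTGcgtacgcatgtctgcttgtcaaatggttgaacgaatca

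Summits of 1 region lay close together, with a sharp lower limit. Over the 209 pairs of neighbouring summits the distance ran from 199 to 1562 bp, with a median of 205 bp and an upper quartile of 239 bp. In 111 pairs (53.1%) the distance was 199 to 205 bp, in 35 it was 206 to 220 bp and in 15 it was 221 to 249 bp. A further 10 pairs were 250 to 299 bp apart, 10 were 300 to 499 bp, 22 were 500 to 999 bp and 6 were 1000 bp or more. So 161 pairs (77.0%) were under 250 bp apart, and 38 (18.2%) were 300 bp or more apart.

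**Figure D1:**
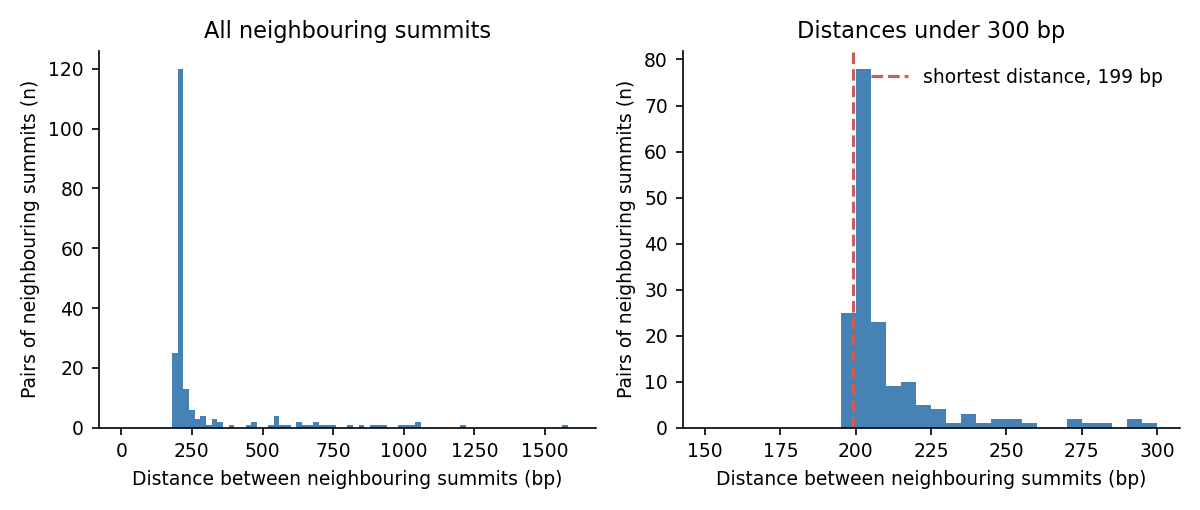
Number of neighbouring summit pairs (n) by distance in bp, for all 209 pairs in bins of 20 bp (left) and for pairs under 300 bp apart in bins of 5 bp (right). The dashed line marks the shortest distance, 199 bp, and 111 of the 209 pairs lie within 199 to 205 bp.

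The same lower limit stood in every list. The shortest distance within a region was 199 bp in each of the 3 replicate lists and 198 bp in the list called on the pooled replicates. It also held between summits of different regions, where the shortest distance was 199 bp in the thresholded list and 198 to 199 bp in the others. Median spacing within regions was 203, 202 and 202.5 bp in replicates 1, 2 and 3 (202.5 ± 0.5, SD, n = 3), and 71.0% ± 1.08 of their spacings were 199 to 205 bp. The distance between summits thus had a floor in every list used here, and the part of the peak calling in it was not tested.

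Some regions with 1 listed summit were also close to another. In the thresholded list 198 pairs of regions overlapped, 379 of the 7015 single-summit regions overlapped another region, and 414 (5.90%) had another summit within 250 bp. Of the 195 multi-summit regions, 15 overlapped another region. The replicate lists joined fewer summits into 1 region than the thresholded list, with 152, 111 and 110 multi-summit regions in replicates 1, 2 and 3, each from 30000 peaks. The pooled list held 381. Whether a close pair shares 1 region thus differs by list.

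The threshold of the list decided which regions count. The lowest signal in the thresholded list was 216.5 in the authors' units of signal, which are the peak caller's own value per peak. Of the 381 multi-summit regions of the pooled list, 195 had 2 or more summits inside the threshold, 183 had 1 and 3 had 0. The weakest second summits just inside had signals of 217.2, 218.2, 219.5, 219.8 and 221, and the strongest just outside had 215, 214, 213, 212.5 and 212. Within the 195 regions, 23 held 26 further weaker summits of the pooled list, for 430 summits in all and up to 5 in 1 region.

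The multi-summit regions were wide and strong. Their median width was 692 bp (363 to 2612 bp), against 325 bp for single-summit regions, and they covered 160.2 kb. The strongest summit of a region had a median signal of 766 (294 to 6285), against 332 for single-summit regions, a ratio of 2.30. They made up 2.70% of the regions outside the CG13894 locus, 8.52% of the summed signal, and 20 of the 100 strongest regions. When the regions were ranked by strongest signal and split into 10 classes of 721, they made up 14.0% of the strongest class, 7.21% of the next (52 regions), 3.05% of the one after (22 regions), and 0 in the 3 weakest.

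**Figure D2:**
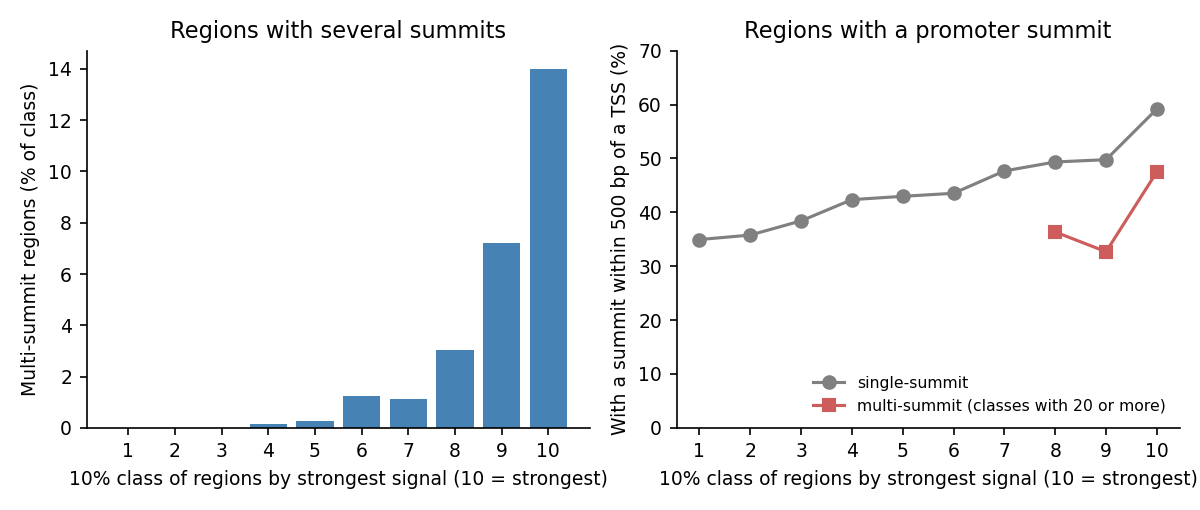
Share of regions with several summits in each of 10 equal classes of the list by strongest signal (left, % of 721 regions), and share of regions with a summit within 500 bp of a transcription start site (TSS) for single-summit and multi-summit regions (right, %; multi-summit values only where a class held 20 or more). Multi-summit regions reach 14.0% of the strongest class, where 47.5% of them and 59.2% of single-summit regions had a promoter summit.

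The same order of signal stood in each replicate. The median of the strongest replicate signal was 329, 248 and 224 in multi-summit regions for replicates 1, 2 and 3, and 143, 110 and 105 in single-summit regions. The ratio was 2.30, 2.26 and 2.13 (2.23 ± 0.0878, SD, n = 3), or 1.16 ± 0.06 on the log2 scale. The thresholded list was derived from these replicates, and each further summit of a region had to pass its threshold, so this order is a description and was not tested. Among the stronger 50% of the list the log2 ratio was 0.72 ± 0.05.

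In most regions the second summit had under 50% of the strongest one's signal. The strongest summit carried a median of 68.2% of a region's summed signal (37.0 to 94.4%), 68.9% in regions with 2 summits and 53.4% in regions with 3. The share cannot fall below 50% with 2 summits and can with 3, so these 2 medians are not compared. The second summit had a median of 45.1% of the strongest one's signal (5.97 to 99.2%). Among the 181 regions with 2 summits, the second had at least 50% of the strongest in 78, at least 90% in 10, and under 25% in 23. The 149 regions with 2 summits under 250 bp apart had a median top share of 69.5%, and the 24 that were 300 bp or more apart had 66.6%. The share reached 91.5% among the close pairs and 94.4% among the distant ones.

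**Figure D3:**
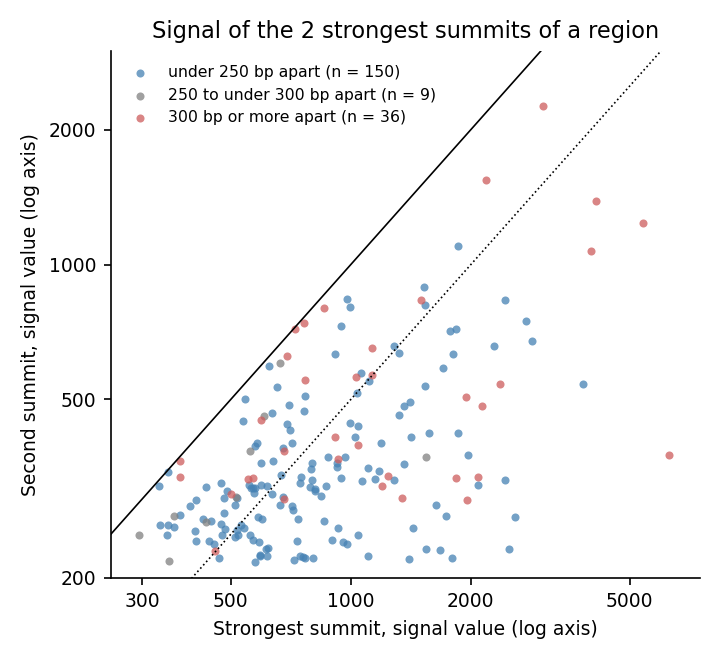
Signal of the second summit against that of the strongest in the 195 regions, in the authors' signal values (both axes log). The solid line marks equal signal, the dotted line 50%, and colours give the widest distance between neighbouring summits; most regions lie below the dotted line.

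The replicates mostly kept which summit was strongest in the thresholded list. That list was derived from the same replicates, so part of this agreement is built in. The values are a description and were not tested. This was read in regions where 2 or more summits had a replicate summit within 100 bp. The strongest was the same in 168 of 173 regions in replicate 1, 162 of 168 in replicate 2 and 153 of 161 in replicate 3 (96.2% ± 1.06, SD, n = 3). The 2 strongest summits were both matched in all 3 replicates in 122 of the 195 regions, and only these were read for order. Their order was kept in all 3 in 112 of these and in 2 of 3 in the other 10. When the second summit had under 80% of the strongest, 111 of 114 regions kept the order in all 3. From 80% on, 1 of 8 did. The second summit's percentage itself had a median SD over replicates of 12 percentage points in these regions, and its median over regions was 42.5, 43.4 and 35.5% in replicates 1, 2 and 3.

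Each replicate's own list was then searched for summits inside the 195 regions. Replicates 1, 2 and 3 listed 2 or more summits in 178, 177 and 170 of them (89.7% ± 2.24, SD, n = 3), and in 840, 882 and 900 of the 7015 single-summit regions (12.5% ± 0.439). Over all 7210 regions the shares were 14.1%, 14.7% and 14.8%. The difference was 77.3 ± 2.60 percentage points. The regions were chosen for several summits in a list derived from these replicates, so this is a description with no test. The multi-summit regions are wider, and against single-summit regions at least as wide as the narrowest of them the difference was 63.4 ± 2.78 points.

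All 3 replicates listed 2 or more summits in 144 of the 195 regions (73.8%), 2 replicates in 42 and 1 replicate in 9. For single-summit regions the number with 2 or more in all 3 was 165 (2.35%), and over all 7210 regions it was 4.29%. Fewer were joined the same way: 84, 61 and 63 of the 195 were a single region with 2 summits in replicates 1, 2 and 3, 29 were so in all 3, and 92 in none. The replicates therefore listed the summits more often than they joined them. The strongest summit had a replicate summit within 50 bp in 85.0% ± 3.98 of regions, the second in 79.8% ± 4.3, and single summits in 83.0% ± 2.80. Positions 205 bp to the side of single summits had one in 13.4% ± 0.279. Second summits are listed summits by the rule and most side positions are not, so the choice of regions sets part of this contrast. It was not tested.

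The strongest multi-summit region lay at the promoter of mrt, on 3R from 27281453 to 27283091. Its summits had signals of 6285 and 375, 918 bp apart, at 98 and 202 bp upstream of mrt TSSs. The strongest had 2397, 1979 and 1909 in replicates 1, 2 and 3 (ranks 10, 11 and 10), and the second had 48.7, 124 and 169. The second was 5.71% ± 3.44 of the first (SD, n = 3), so this was the most one-sided of the strongest regions. It was listed at rank 17301 in replicate 1 and 1513 in replicate 3.

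The region with the most signal and 3 summits covered the promoter of cbt, a zinc-finger transcription factor of the TGF-beta and sugar responses, and the 5′ part of ush, which encodes a zinc-finger cofactor of GATA factors. It ran on 2L from 479550 to 482161. Its middle summit, in an intron of ush and 1381 bp upstream of a cbt TSS, had a signal of 5418. The flanking summits, 382 and 2302 bp upstream of that TSS, had 1239 and 754. In replicates 1, 2 and 3 the middle summit had 2332, 1559 and 1546, the promoter summit 562, 445 and 369, and the third 277, 282 and 214. All 3 summits were listed in all 3 replicates, in the same order of the 2 strongest, with the promoter summit at 25.5% ± 2.65 of the middle one.

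The region at ph-p, a subunit of Polycomb repressive complex 1, had nearly even summits. It lay on X from 2137011 to 2138306, with summits 630 bp apart in 2 promoters of the gene, 458 bp upstream of an internal TSS and 428 bp downstream of the distal one. Their signals were 3030 and 2259. In replicates 1, 2 and 3 the strongest had 1328, 989 and 895 (ranks 38, 40 and 44) and the second 986, 740 and 631 (ranks 70, 72 and 89). The second was 73.2% ± 2.29 of the first, the smallest spread among the 10 strongest regions with both summits matched in all 3 replicates. Their windows, shown above, had a GC content of 39.8 and 25.4% and held none of the marked motifs.

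**Figure D4:**
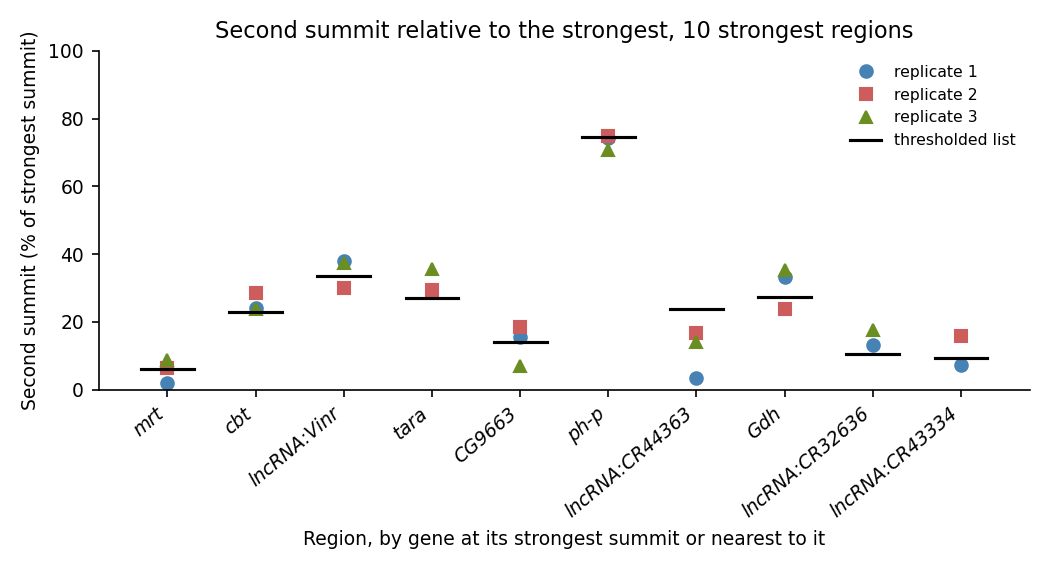
Second summit as a percentage of the strongest in the 10 strongest multi-summit regions, for replicates 1 to 3 (points) and the thresholded list (bars); a missing point means that 1 of the 2 summits had no replicate summit within 100 bp. The ph-p region stands at 70 to 75% in all 3 replicates, and the mrt region is below 10%.

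The other strong regions were mostly intronic or in noncoding genes. On X from 12750821 to 12752850, summits 1015 bp apart had signals of 4126, in lncRNA:Vinr, and 1385, in the overlapping lncRNA:CR44619. The region in an intron of CG9663 (2L, 3301810 to 3302613) had 3830 and 540, and replicate values of 1582, 1081 and 1173 against 246, 200 and 81.0. Its summits were 210 bp apart, near the floor, and the stronger window holds the GA repeat shown above. An intergenic region on 3L from 11406112 to 11407293, nearest to lncRNA:CR44363, had 2840 and 675, and its second summit had 42.3, 143 and 110 in the replicates.

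In an intron of Gdh, which encodes glutamate dehydrogenase, summits 215 bp apart had signals of 2743 and 747 (3R, 23939774 to 23940535). The region at the promoter of lncRNA:CR32636 (X, 13332253 to 13332965) had 2580 and 274, with the second unmatched in replicate 2. That in lncRNA:CR43334 (3L, 630517 to 631354) had 2488 and 232, with the second unmatched in replicate 3.

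Regions with summits far apart included promoters and introns. The widest spacing, 1562 bp, was at Pgk, the glycolytic phosphoglycerate kinase gene, whose region (2L, 2750760 to 2753160) also reached a promoter of the divergent Bacc. Its summits, 395 bp upstream of an internal Pgk TSS and 122 bp downstream of another, had 1503 and 834. In replicates 1, 2 and 3 the first had 538, 538 and 424 and the second 304, 255 and 297, or 58.1% ± 11.5 of the first. This region held 4 TSSs, the most of any. In an intron of CG9837 (3R, 8810327 to 8812184), summits 1029 bp apart had 2189 and 1545. Replicates 1, 2 and 3 gave 921, 627 and 690 against 665, 480 and 410, so the second was 69.4% ± 8.96 of the first.

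In 4 of the 5 most even pairs the order of the summits differed in at least 1 replicate. Nearest to lncRNA:CR44588 on 2L, from 12011431 to 12012688, intergenic summits 464 bp apart had signals of 763 and 741. In replicates 1, 2 and 3 the first had 359, 229 and 184 and the second 325, 266 and 181. The second was stronger in replicate 2, at 102% ± 13.0 of the first over the 3. The other pairs among the 5 most even lay in introns of CG46301 (373 and 365), in lncRNA:CR43314 (348 and 344), nearest to lncRNA:CR45293 (330 and 320) and at the promoter of Sqor, the sulfide:quinone oxidoreductase gene (623 and 594).

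Besides cbt, another 13 regions held 3 summits. Those with a summit at a coding promoter were at fal (3L, 19293349 to 19294609; signals 2370, 543 and 271), COX7AL2 (2L, 2197677 to 2199538; 1130, 652 and 344), p130CAS and wde, the last encoding a cofactor of the histone methyltransferase Eggless. Those in introns were in 14-3-3zeta, which encodes a phosphoprotein-binding adaptor (1941, 507 and 273), Pgant9 (914, 412 and 379) and CG18135 (769, 552 and 424). The remaining 6 were at the noncoding genes lncRNA:CR31840 (1540, 371 and 228) and lncRNA:CR46035 inside osa (595, 450 and 253), or intergenic, nearest to CG43707, Ids, Rh5 and Hacd1. At Rh5 (2L, 12010105 to 12011510) the 3 signals were 723, 717 and 512, so the strongest held 37.0%, the lowest top share of all 195. The regions at p130CAS, wde and Hacd1 were named after their values were seen.

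Some regions stood in clusters. With gaps of up to 10 kb, 36 of the 195 regions (18.5%) fell into 14 clusters. The same share was not computed for single-summit regions, so whether multi-summit regions cluster more than others was not tested. The largest, on 3L from 10810552 to 10823393, held 5 regions and 10 summits in 12.8 kb around CG42831 and lncRNA:CR45247, with top signals of 361 to 922. A cluster on 2L from 12002938 to 12012688, intergenic near Hacd1 and Rh5, held 4 regions and 10 summits in 9.75 kb, and all 3 replicates listed 2 or more summits in each of the 4. The third large one, on 3R from 16235098 to 16250526, held 4 regions and 8 summits in 15.4 kb, all in introns of tara.

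tara encodes a trithorax group protein linked to cell-cycle control, and was the coding gene with the most multi-summit regions. Of its 21 thresholded summits, 8 were in these regions. Its strongest region (16235098 to 16237381) had summits 1215 bp apart with signals of 3993 and 1074, and the strongest had 1832, 1192 and 1012 in replicates 1, 2 and 3. The second had 350 and 361 in replicates 2 and 3 and was unmatched in replicate 1. The other 3 regions had top signals of 1063, 691 and 681.

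Other genes also held more than 1 region. rdx, an adaptor of a ubiquitin ligase in Hedgehog signalling, held 3 regions among 18 thresholded summits over 65.0 kb. Those with 2 were Bacc, CG12535, CG9837, COX7AL2, by (which encodes tensin), osa, ush, lncRNA:CR43334, lncRNA:CR44999, and the neighbours HmgD and HmgZ, which share both regions and encode HMG-box chromosomal proteins. lncRNA:CR44999 and CG12535 overlap and share both of theirs, so these 13 genes do not stand for separate regions in each case. Since dm6 regions were assigned without regard to strand, a region inside overlapping genes cannot be given to one of them.

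At the level of annotation, the 404 summits were in introns of coding genes in 153 cases (37.9%), within 500 bp of a TSS, called promoters, in 141 (34.9%), and intergenic in 87 (21.5%). Another 16 (3.96%) were in other transcribed sequence such as exons and introns of noncoding genes, 5 in 3′ UTRs and 2 in coding exons, both in 1 region inside Cda5. There were 0 in 5′ UTRs outside promoters, which allows a share of up to 0.743%. Single summits were at promoters in 44.1%, in introns in 37.1%, intergenic in 14.8% and in other transcribed sequence in 1.57%. The strongest and the second summits each had 69 of 195 at promoters.

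By region, 75 of 195 multi-summit regions (38.5%, 95% Wilson interval 31.9 to 45.5) had a promoter summit, and all summits were at promoters in 63. Over all 7210 regions the share was 44.0%, and in single-summit regions it was 44.1% (43.0 to 45.3). The share near the background is not a result about these regions as a whole. At matched strength it was lower: 47.5% against 59.2% in the strongest 10% of regions, 32.7% against 49.8% in the next and 36.4% against 49.4% in the one after. Every summit was over 2 kb from a TSS in 35.4% of multi-summit and 34.1% of single-summit regions. Wilson intervals here cover counting error over regions only.

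The comparison was repeated on regions that each replicate's own 7434 strongest peaks defined. With 86, 73 and 65 multi-summit regions in replicates 1, 2 and 3, the promoter share was 39.5, 42.5 and 43.1% (41.7% ± 1.89, SD, n = 3), against 44.0, 44.4 and 46.4% (45.0% ± 1.27) for single-summit regions. The difference was -3.27 ± 1.27 percentage points, lower in 3 of 3 replicates, with an exact sign-flip permutation p of 0.25, the smallest that 3 replicates allow (two-sided). Among the strongest 10% of regions it was -11.9 ± 2.64 points (45.6% against 57.5%). The direction turned with all 30000 peaks (11.9 ± 4.34 points) and with multi-summit regions 300 bp or more apart (22.2 ± 11.7). Of the latter, the whole replicate lists held at most 15, 8 and 5 spacings. In the thresholded list, 15 of 36 such regions had a promoter summit (41.7%, Wilson interval 27.1 to 57.8), against 44.1% of single-summit regions. So the turn at 300 bp or more was not seen in that list. With a promoter distance of 200 bp the difference was -0.06 ± 3.37, within the spread between replicates.

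Of the promoter regions, 67 lay at TSSs of 1 strand. TSSs on both strands lay within 500 bp of the summits in 8 of the 75 (10.7%, Wilson interval 5.50 to 19.7), against 789 of 3096 single-summit promoter regions (25.5%, 24.0 to 27.05). The difference was not tested over replicates. In the 67 regions, the second summit was downstream of the strongest in 32, and the strongest was nearer to a TSS in 39. Summit strength thus had no fixed order along the gene. Of the 75, 64 held a TSS inside the region and 14 held 2 or more.

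The promoter regions reached 1 coding gene in 58 cases, 2 in 5, and noncoding genes alone in 12. The 5 with 2 coding genes, named after their values were seen, were at Pgk and Bacc, CG42806 and CtsL1, Hsc70-5 and CG8531, Fur1 and Vps33B, and CG10527 and Treh, the trehalase gene. In the last (2R, 21072861 to 21074014; signals 1240 and 337, 589 bp apart) each summit was at the promoter of a different gene, the only such region of the 75. None reached 3 or more. Outside promoters, 81 of 120 regions (67.5%, Wilson interval 58.7 to 75.2) had all their summits inside 1 gene. Of 3919 single summits outside promoters, 1035 were intergenic and the rest inside genes. Lying inside a gene is thus not particular to these regions. The longest coding gene around an intronic top summit had a median length of 27369 bp, against 33134 bp for single summits.

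By arm, 48 of the 195 regions were on 3L, 46 on 3R, 41 on 2R, 38 on 2L and 22 on X. The X share was 11.3% (Wilson interval 7.57 to 16.5), against 16.8% of single-summit regions, and 0 were on chromosome 4, which allows up to 1.54% and where 0.941% of single-summit regions lay. Annotated transposons overlapped 2 of the regions (1.03%, 0.282 to 3.66) and 0.713% of single-summit regions. On 2L, 2R, 3L and 3R the shares were 19.5, 21.03, 24.6 and 23.6%, against 19.5, 18.4, 21.9 and 22.4% of single-summit regions.

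The regions reached 180 genes, 149 of them coding, which is 1.07% of 13945 coding genes. For 68 (0.488%) a summit was at the promoter. Gene lists were read against these shares. Of 333 symbols on the lists, 22 were not matched to the annotation by the listed spelling and are not in the counts, among them Dl and nct of the Notch pathway, h of the segmentation genes and calypso of the Polycomb group. Polycomb and trithorax group genes were reached in 4 of 33: tara, osa (a subunit of the Brahma remodelling complex), jing (a zinc-finger factor) and ph-p. Stress-responsive transcription factors were reached in 3 of 23: cbt, Atf3 (1543 and 232, in an intron) and Hnf4 (788 and 319, at a promoter). The median gene length was 8331 bp in the first list and 10024 bp in the second, against 2166 bp for all coding genes, and its part in these counts was not tested.

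Signalling genes were reached mostly in introns. In Dpp/BMP signalling these were 2 of 20, the inhibitory Smad gene Dad (515 and 302) and the zinc-finger factor gene shn (931 and 258, at a promoter). In EGF receptor signalling they were 2 of 25, the antagonist gene sty (1150 and 333) and the ETS repressor gene aop (575 and 317). Hedgehog and Wnt signalling had 1 of 27, the receptor gene ptc (594 and 323), and the Notch pathway 1 of 24, the coactivator gene mam (1968 and 376). The ecdysone response had 2 of 21, the receptor gene EcR (572 and 310, in an intron) and E23, a hormone-induced ABC transporter gene (812 and 313, at a promoter). Summit pairs were 199 to 253 bp apart in all 8.

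Glycolysis had 2 of 13, Pgk and Hex-A, both at promoters. At Hex-A (X, 9585231 to 9585911), summits 149 bp upstream and 52 bp downstream of the TSS had 1632 and 291. In replicates 1, 2 and 3 the first had 554, 534 and 567 and the second 121, 34.7 and 90.6, so the second was 14.8% ± 7.71 of the first. The second window held the GA repeats, shown above. Heat shock and chaperone genes had 1 of 30, the mitochondrial Hsc70-5 (752 and 336), and neuronal genes 1 of 34, elav, an RNA-binding protein gene (1962 and 298).

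Other lists held none of these regions. Of 92 cytoplasmic ribosomal protein genes 64 had some thresholded summit within 500 bp of a TSS or inside, and 0 were reached by a multi-summit region. For mitochondrial ribosomal protein genes the numbers were 27 and 0 of 73, for insulator and promoter-architecture genes 14 and 0 of 22, and for segmentation and homeobox genes 8 and 0 of 39. Of all coding genes with any summit, 3.91% were reached by a multi-summit region. Of 290 tRNA genes, 68 had a summit and 2 were reached, tRNA:Thr-AGT-1-2 and tRNA:Tyr-GTA-1-8. The lists were chosen with earlier results of these data known, and their counts are descriptions.

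Few of the summits carried the DRE. The letters TATCGATA (its own reverse complement) stood in 1 of 404 such windows (0.248%, Wilson interval 0.0437 to 1.39), against 237 of 7015 single summits (3.38%, 2.98 to 3.83). Over all 7419 summits outside the CG13894 region the share was 3.21%, and over windows of the same length tiling the genome it was 0.564%. At promoters the counts were 0 of 141, which allows up to 2.13%, against 218 of 3096 (7.04%). The 1 window was the second summit of the lncRNA:CR31840 region, shown above, 549 bp upstream of that TSS. A match is a description of the letters, not a binding site.

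The replicates' own regions were searched in the same way. DRE windows were 0 of 179, 0 of 149 and 1 of 133 summits of multi-summit regions in replicates 1, 2 and 3 (0.251% ± 0.434, SD, n = 3), against 3.29, 3.01 and 3.55% of single summits (3.29% ± 0.271). The difference was -3.03 ± 0.243 percentage points, lower in 3 of 3 replicates, with an exact sign-flip permutation p of 0.25, the smallest possible. Among the strongest 10% of regions it was -1.92 ± 0.409 points (0.271% against 2.19%).

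**Figure D5:**
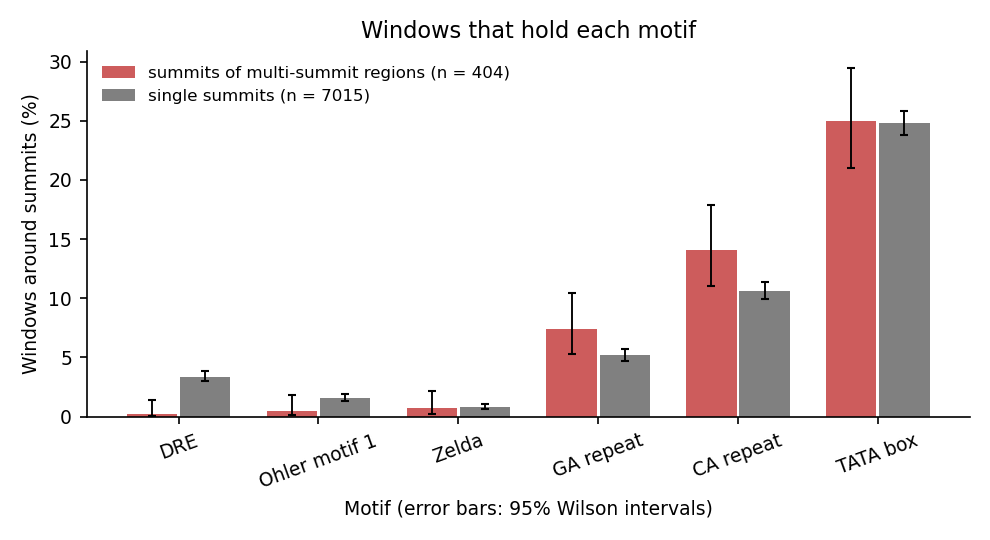
Share of windows reaching 100 bp to either side of a summit (%) that held each motif on either strand, for the 404 summits of multi-summit regions and the 7015 single summits, with 95% Wilson intervals. The intervals for the DRE do not overlap (0.248 and 3.38%); those for the TATA box (25 and 24.8%) do.

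Repeats of GA and CA stood in more of the windows than single summits held, with intervals that overlap. GAGAGAG, or CTCTCTC on the other strand, stood in 30 of 404 windows (7.43%, Wilson interval 5.25 to 10.4), against 5.19% (4.69 to 5.73) of single summits, 5.31% of all summits and 2.45% of genome windows. In the replicates' own regions the difference was 3.82, 0.0964 and 2.95 points (2.29 ± 1.95, SD, n = 3; exact sign-flip permutation p of 0.25, the smallest possible), and with the 3717 strongest peaks it was 0.0284 ± 3.65, within the spread between replicates. CACACAC, or GTGTGTG, stood in 57 (14.1%, 11.1 to 17.8), against 10.6% of single summits, 10.8% of all summits and 6.22% of genome windows. Outside promoters it was 17.1% (13.0 to 22.1) against 11.7% (10.7 to 12.8), and at promoters 8.51% against 9.27%. The GA repeat stood in 7.98% (5.28 to 11.9) against 4.49% (3.89 to 5.19) outside promoters, and in 6.38% against 6.07% at promoters. Outside promoters the intervals overlap for neither repeat. These splits were not tested over replicates.

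Few regions held these letters at all their summits, and few single windows held them. The GA repeat stood in 8.21% of windows at strongest and 7.18% at second summits, and the CA repeat in 14.9% and 13.3%. Shared letters are rare at such shares even if summits do not depend on each other, and such dependence was not tested. GA repeats stood at some summit of 29 regions and at all summits of 1, and CA repeats at some summit of 53 and at all of 4. The GA repeat was at the strongest summit alone in 15 regions and at a weaker one alone in 13. The shorter GAGAG, or CTCTC, stood in 35.4% of windows at strongest summits (Wilson interval 29.0 to 42.3) and in 26.7% at second summits (21.0 to 33.3). These intervals overlap. The share was 28.2% at single summits, 28.3% over all summits and 21.5% over genome windows, so the second summits were near the share of all summits. The difference between strongest and second summits was not tested. Windows at the strongest summits had a median GC content of 46.3%, at the second 43.8%, and at single summits 43.3%.

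Of the remaining motifs, the Zelda motif and TATAAA were near their shares over all summits, and Ohler motif 1 had too few matches to place. Ohler motif 1 (GGTCACACT or its reverse complement) stood in 2 of 404 windows (0.495%), against 1.57% of single summits, 1.51% of all summits and 0.201% of genome windows. The Zelda motif CAGGTAG stood in 3 (0.743%), against 0.798%, 0.795% and 1.09%. TATAAA stood in 25% of the windows, against 24.8%, 24.8% and 21.8%. The interval of Ohler motif 1 (0.136 to 1.79%) rests on 2 windows and included the values of single summits and of genome windows, so it does not tell them apart. No match says only that these letters are not in the window, and nothing about any factor.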

How the data were processed

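ChIP-seq peak lists of CG13894-GFP embryos (3 biological replicates, 1 group) were used in narrowPeak form on dm6. Per the deposited file notes, the authors called peaks on each replicate and on the pooled replicates, with a control alignment, and derived a list thresholded on the irreproducible discovery rate. Aligner, peak caller, settings and threshold value: not given in the sources used here. Each deposited signal value is the caller's own per peak, and its scale differs between lists, so it was compared within a list only. The deposited −log10 q-value is capped and was not used to rank. The deposited summit offset gave 1-based summits, set to the last base for 5 thresholded peaks past the end. No file gives read counts, so depth and the precision it gives are unknown. Genes and TSSs came from Ensembl release 115 (BDGP6, 17896 genes, 23307 TSSs, without transposons and pseudogenes), sequence from RefSeq Release 6. Of 30748 coding transcripts, 99.5% began with ATG on it.

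Multi-summit regions share chromosome, start and end; a promoter summit was within 500 bp of a TSS, and replicate summits matched within 100 bp. Motifs were searched on either strand of 201 bp windows. Replicate differences in promoter and motif shares were tested by an exact two-sided sign-flip permutation over 3 replicates, whose smallest p is 0.25, so no test here could pass 0.05. Intervals are 95% Wilson and cover counting error only. Those over summits count summits of 1 region separately and may be too narrow. A count of 0 was given a limit of 3 counts. Regions named were the 10 with most summits, the 10 strongest, the 5 widest and 5 most even with 2 summits, and those reaching genes of the lists. Members, lists and motifs were chosen with earlier results of these data known. Alternatives are in the closing section. The spacing and matching code was tested on simulated data. Python 3.11.15, numpy 2.4.6, pandas 2.3.3, SciPy 1.17.1 and matplotlib 3.10.9 were used.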

Additional observations from a re-analysis of the deposited data

How the results depend on the processing

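Of 47 recomputed values, 44 were counted as the same in direction and side of the threshold. The side was fixed in advance, since no p could pass 0.05 with 3 replicates. Counted as the same were also differences within the spread between replicates, which give no direction. These were the promoter share at 200 bp (-0.06 ± 3.37 points) and the GA repeat with 3717 peaks (0.0284 ± 3.65). The lower promoter share of multi-summit regions turned to 11.9 points higher with all 30000 peaks of each replicate. It turned to 22.2 points higher for regions 300 bp or more apart, a setting chosen after seeing the data. In the thresholded list such regions had 41.7% (15 of 36), against 44.1% of single-summit regions, so it did not turn there. The cause was not tested. The promoter share difference was -9.19 points with 3717 peaks, -0.06 with a promoter distance of 200 bp and -5.94 with 1000 bp. Leaving out each replicate, it was -2.65 to -3.92 points. Median summit spacing was 204 bp in the pooled list, against 205 bp. Leaving out each replicate, the listing of 2 or more summits differed by 76.3 to 78.8 points, the log2 signal ratio was 1.13 to 1.19, the GA repeat difference 1.52 to 3.38 points and the DRE difference -2.91 to -3.15 points. The DRE difference was -1.27 points with all 30000 peaks, -1.72 with windows of 50 bp to either side and -1.92 in the strongest 10%. The GA repeat difference in the replicates was 1.24 with the narrower windows, 3.73 in the strongest 10% and 6.78 with GAGAG. In the thresholded list it was 2.24 points, and 1.02 points in the strongest 10% of its regions (5.21% against 4.19%). Settings chosen after seeing the data were the thresholded list itself, the strongest 10%, the splits by spacing, GAGAG, and single summits without a near one. No paired analysis was possible because there is 1 group and no other to pair it with; the sign-flip tests take differences within each replicate. Precision is limited by 3 replicates, unknown depth, lists that end at 30000 peaks and a summit floor near 199 bp.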
